A study of Mus musculus with 12 samples.

Results

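Heat shock proteins and their partners were followed in RNA-seq counts of mouse satellite cells, the *Pax7*-expressing stem cells of skeletal muscle. The set was fixed by name and holds 10 of the 55401 genes counted: *Hspa1a*, *Hspa1b*, *Hspa8*, *Dnajb1*, *Hsph1*, *Hsp90aa1*, *Hspb1*, *Bag3*, *Hspd1* and *Hspe1*. All 10 passed the filter on low counts, which kept 25771 genes for testing. All mice carried CXCR4 FL/FL alleles and the Pax7-ZsGreen reporter and were adult, and all were given tamoxifen by intraperitoneal injection at 80 mg/kg for 5 days. *Cxcr4* KO mice also carried Pax7-creERT2, so that deletion was driven by the *Pax7* promoter and cells without recombination could remain, and *Cxcr4* WT mice had no cre. ZsGreen+ cells were sorted after collagenase digestion of hind limb muscle. They were lysed at once (quiescent, 4 WT and 4 KO libraries) or after overnight culture in growth medium (activated, 2 WT and 2 KO libraries). The sample labels do not say that each library came from its own mouse, so p-values measure the spread between these libraries.

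Chaperones bind unfolded proteins and let them reach or keep their shape. In the cytosol, Hsp70 proteins hold a client in cycles of ATP use that a J-domain protein (Hsp40) starts and a nucleotide exchange factor ends, small heat shock proteins hold clients without ATP, and Hsp90 completes the folding of kinases and receptors. Heat and other protein damage release the transcription factor Hsf1, which binds arrays of inverted GAA repeats in heat shock gene promoters. Enzymatic digestion of muscle is known to start stress responses, heat shock genes included, in sorted satellite cells.

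Promoters of some members are shown because Hsf1 is known to bind heat shock gene promoters. Its binding was not measured here. *Hspa1a* (chromosome 17 from 34969190 to 34972156) and *Hspa1b* (chromosome 17 from 34956436 to 34959238), both on the minus strand of GRCm38, encode the inducible Hsp70, and 247 of the 250 bases before their start sites were identical (98.8%). The sequences below come from RefSeq on GRCm38.p6, 5′ to 3′ on the strand of the gene, and capitals mark the fixed bases of each match to GAANNTTC or TTCNNGAA, 2 inverted GAA units that read the same on both strands. A further NNGAA or NNTTC in phase adds a unit.
Hspa1a, chr17:34972157-34972306, minus strand: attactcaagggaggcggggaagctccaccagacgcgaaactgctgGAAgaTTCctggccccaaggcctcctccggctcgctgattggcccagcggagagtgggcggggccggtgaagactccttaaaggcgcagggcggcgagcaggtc
Hspa1b, chr17:34959239-34959388, minus strand: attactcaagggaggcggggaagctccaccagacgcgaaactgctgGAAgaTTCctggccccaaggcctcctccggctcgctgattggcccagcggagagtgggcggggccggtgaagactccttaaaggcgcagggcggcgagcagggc
Hspb1, chr5:135887769-135887858, plus strand: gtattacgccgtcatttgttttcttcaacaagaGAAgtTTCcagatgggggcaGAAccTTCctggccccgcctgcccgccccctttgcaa
Hspe1, chr1:55088053-55088082, plus strand: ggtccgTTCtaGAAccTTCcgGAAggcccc
The match lies 104 bases before the start in both *Hspa1a* and *Hspa1b*, and 2 separate matches lie 117 and 97 bases before that of *Hspb1*. The *Hspe1* stretch holds 4 units in a row, read as 3 overlapping matches of 2 units. *Hspe1* and *Hspd1* are transcribed away from each other from the same promoter on chromosome 1. These are therefore also the matches of 1 of the 2 RefSeq entries of *Hspd1*. The other entry held no match in the window searched.

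In windows from 250 bases before to 50 bases after the start, 8 of the 11 promoter entries found for the set (72.7%) held 2 units, against 4946 of all 32851 RefSeq promoters (15.1%), and 4 entries held 3 units (36.4% against 0.603%). By gene, 7 of the 8 members in the promoter table had a match to 2 units, and *Hspd1*, *Hspe1* and *Hsph1* had 3 units. The match of *Bag3* and the 3 units of *Hsph1* lie after the start site, and neither entry of *Dnajb1* held a match. No promoter entry was found for *Hspa8* and *Hsp90aa1*, so their promoters were not searched. The entries are not independent, and the shares count some DNA more than once. *Hspd1* and *Hspe1* share their matches, the 2 entries of *Hsph1* overlap, and the promoters of *Hspa1a* and *Hspa1b* are nearly identical. The set was named as heat shock genes, whose promoters are known for such repeats, so its higher shares are no test of it. Among 83 promoter entries of the wider chaperone network listed below, 20.5% held 2 units and 3.61% held 3 units. These are matches of letters, not measured binding sites.

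The libraries of the 2 states differed in more than culture. Depth ran from 12775593 to 23717013 counts in quiescent and from 3172164 to 5427280 in activated libraries, and 1 ribosomal RNA gene took 0.295 to 0.807% of quiescent and 11.5 to 40.3% of activated counts. *Xist*, transcribed in female cells, had 1.2 to 7.17 CPM in quiescent and 451 to 817 CPM in activated libraries, and 4 genes of the Y chromosome summed to 358 to 660 and 0 to 2.51 CPM, so state and sex cannot be told apart. CPM are counts scaled to a common library size, here with edgeR's TMM factors. *Fos*, *Egr1*, *Jun* and *Atf3*, early stress response genes, were also lower after culture. Their quiescent WT means were 4014, 8750, 2893 and 888 CPM, against 51, 403, 577 and 101 CPM in activated WT. KO means were 2939, 7366, 2212 and 827 CPM against 17.4, 210.6, 370.4 and 34.8 CPM. The part of the digestion in these and in the chaperone values was not tested. The targeted gene *Cxcr4* had 59.1, 61.2, 89.6 and 112.2 CPM in quiescent WT against 12.5, 17.1, 17.6 and 21.2 CPM in quiescent KO libraries, a log2 fold change of -2.24 (SE 0.31, adjusted p = 0.00477). In activated libraries it had 14.4 and 33.3 CPM in WT and 5.39 and 13.7 CPM in KO (log2 fold change -1.35, SE 0.46, adjusted p = 0.381).

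Satellite cell markers were present in every library, except that *Calcr* had no read in 1 activated KO library. Their 8 genes summed to 3178 to 5210 CPM in quiescent and 1047 to 1631 CPM in activated libraries, and 7 of 8 fell on activation in WT and 8 of 8 in KO. All 9 markers of mature muscle fibres rose in both genotypes, from a sum of 302.2 to 1042 CPM to a sum of 7414 to 17760 CPM. Smooth muscle and pericyte markers fell (4 of 6 in WT, 5 of 6 in KO), from a sum of 442.6 to 1731 CPM to one of 169.8 to 320.5 CPM, and *Tagln* was at 0 in 2 activated libraries. Endothelial markers fell for 3 of 6 genes in WT and 2 of 6 in KO (246.6 to 1209 CPM against 100.9 to 538.3 CPM). Of 6 fibroadipogenic progenitor markers, 2 fell in each genotype and 1 rose in KO (286.4 to 2966 CPM against 249.6 to 730.1 CPM), and of 6 hematopoietic markers 2 fell in WT and 3 in KO (45.7 to 198.2 CPM against 21.9 to 33.1 CPM). The part of these cells, of sex and of the ribosomal RNA share in the chaperone results was not tested, and in bulk RNA fewer cells of a type and less RNA per cell cannot be told apart.

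Per length of transcript, the constitutive Hsp70 *Hspa8* was the highest of the set in each group. FPKM, fragments scaled to transcript length and library size, are the authors' single value per group, without error. In quiescent WT cells *Hspa8* stood at 1635 FPKM, followed by *Hspa1b* at 1349, *Hspa1a* at 732, *Hsp90aa1* at 570 and *Bag3* at 539 FPKM. *Dnajb1* (299 FPKM) and *Hspb1* (298 FPKM) were close together, and *Hsph1* (138 FPKM), *Hspd1* (66.7 FPKM) and *Hspe1* (36.5 FPKM) came last. Quiescent KO cells had the same order, from 1414 FPKM for *Hspa8* to 34.6 FPKM for *Hspe1*, except that *Hsp90aa1* (489 FPKM) stood above *Hspa1a* (481 FPKM) and *Hspb1* (255 FPKM) above *Dnajb1* (244 FPKM). In activated cells *Hspa8* (736 FPKM in WT, 734 FPKM in KO) and *Hsp90aa1* (577 and 553 FPKM) led. *Dnajb1* was then the lowest, at 36.7 FPKM in WT and 30.9 FPKM in KO, below *Hsph1* at 40.8 and 40.9 FPKM.

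On overnight culture the set split. In each genotype 6 of the 10 genes fell and 1 rose past an adjusted p of 0.05, a log2 fold change of 1 in either direction and a mean count of 10. Of all genes tested, 26.2% passed this rule in WT (16.5% fell and 9.65% rose) and 29.6% in KO (18.5% fell and 11.1% rose). *Hspa1b*, *Dnajb1*, *Hsph1*, *Hspb1* and *Bag3* fell in both genotypes, where 12.3% of all genes did, and the mitochondrial chaperonin *Hspd1* rose in both, where 7.76% did. *Hspa8* passed the rule in WT alone and *Hspa1a* in KO alone. The median log2 fold change of the set was -1.29 in WT and -1.34 in KO. Over all genes tested the median was -0.92 and -0.96, and over genes with a mean count over 100, as all members have, it was -0.11 and -0.07. The groups' libraries did not overlap for 9 of the 10 genes in WT (56% of all genes) and for 8 of the 10 in KO (54.4%). Without activated WT replicate 2 only 3 genes passed in WT, and without activated KO replicate 1 only 5 passed in KO.

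**Figure D1:**
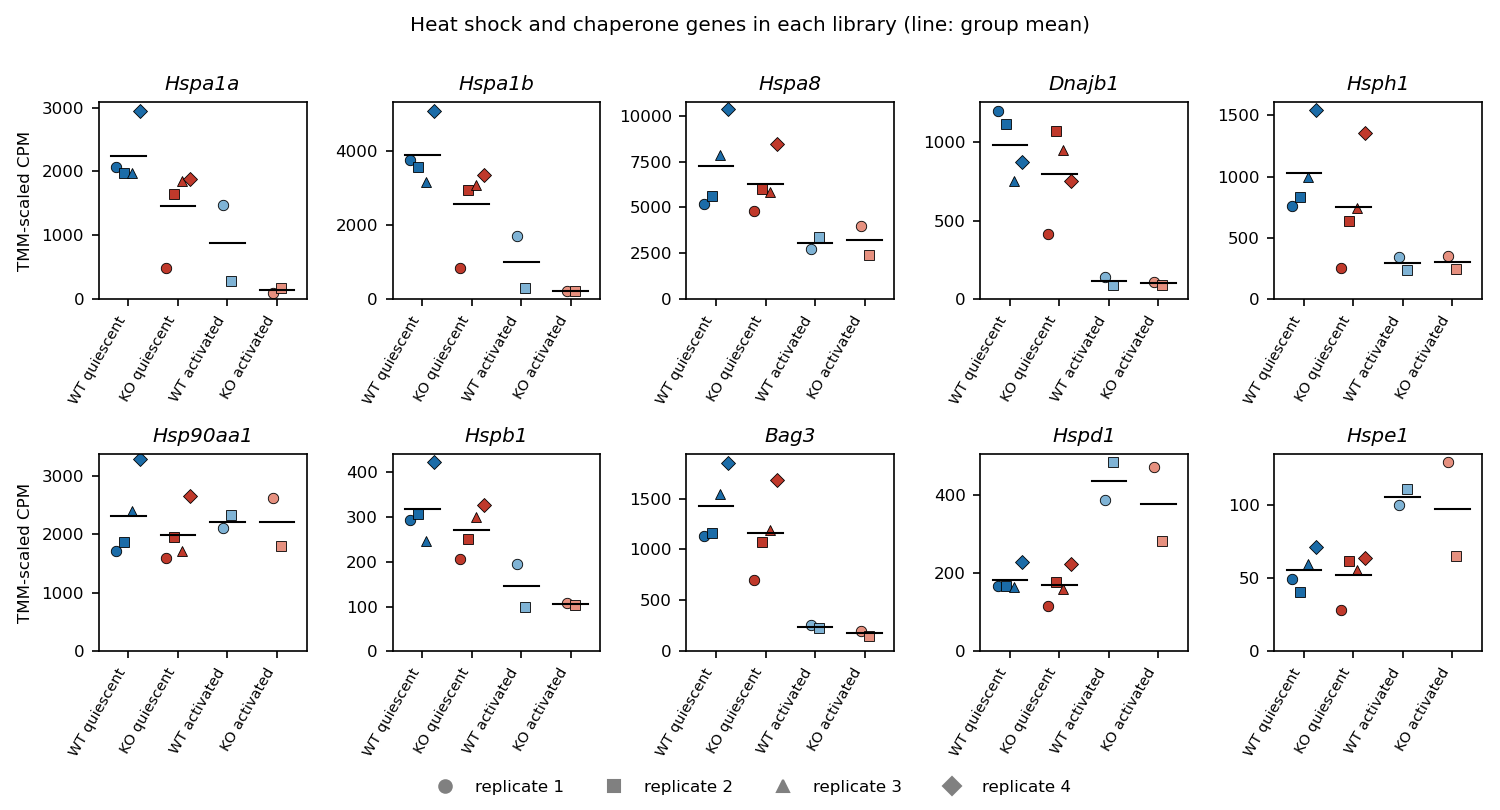
TMM-scaled CPM (linear axis from 0) of the 10 genes in the 12 libraries, by group, with a symbol for each replicate number and a line at the group mean. *Dnajb1* and *Bag3* are low in all 4 activated libraries, *Hspd1* is high in all 4, and activated WT replicate 1 stands above the other 3 for *Hspa1a* and *Hspa1b*.

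*Dnajb1*, a J-domain protein that hands clients to Hsp70, changed most in WT. It had 751.6, 874.1, 1116 and 1201 CPM in quiescent WT libraries and 90.6 and 141.5 CPM after culture. All quiescent libraries lay far above both activated ones, an 8.46-fold drop (log2 fold change -3.08, SE 0.39, adjusted p = 6.27e-06). In KO it went from 414.2, 751.3, 953.8 and 1072 CPM to 90.8 and 111 CPM, with a log2 fold change of -2.98 (SE 0.39, adjusted p = 7.44e-06). The activated libraries of both genotypes covered the same low range.

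*Bag3* encodes a nucleotide exchange factor that couples Hsp70 to small heat shock proteins and to autophagy of damaged sarcomere proteins. Its quiescent WT libraries had 1137, 1165, 1546 and 1848 CPM and its activated ones 226.4 and 254.9 CPM, a 5.92-fold drop (log2 fold change -2.56, SE 0.36, adjusted p = 1.92e-05). The KO libraries read 701.2, 1074, 1194 and 1683 CPM against 153.8 and 200.6 CPM (log2 fold change -2.71, SE 0.36, adjusted p = 9.96e-06). No library of one state reached the range of the other in either genotype.

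The inducible Hsp70 pair was split within the activated WT group. *Hspa1b* had 3177, 3562, 3768 and 5078 CPM in quiescent WT libraries, and 1695 and 299.1 CPM in activated WT replicates 1 and 2. Both lay below the quiescent range but differed 5.67-fold from each other, and the log2 fold change was -1.96 (SE 0.56, adjusted p = 0.0114). *Hspa1a* had 1973, 1979, 2064 and 2941 CPM against 1481 and 280.2 CPM, and its log2 fold change of -1.34 (SE 0.54, adjusted p = 0.0658) did not pass, although DESeq2 called it (adjusted p = 0.028, and from 0.000518 to 0.512 over all alternatives). In KO the 2 activated libraries stood together. *Hspa1b* went from 846.8, 2953, 3090 and 3363 CPM to 216.8 and 224.5 CPM, an 11.6-fold drop (log2 fold change -3.54, SE 0.61, adjusted p = 0.000167), and *Hspa1a* from 492, 1641, 1846 and 1881 CPM to 96.1 and 180.7 CPM, a 10.6-fold drop (log2 fold change -3.40, SE 0.61, adjusted p = 0.000241). Without activated WT replicate 1 the WT fold changes were -3.63 for *Hspa1b* and -2.92 for *Hspa1a*. Without replicate 2 they were -1.14 and -0.54, and *Hspa1b* no longer passed (adjusted p = 0.172, the highest of its alternatives, whose lowest was 3.74e-07).

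*Hspa1a* and *Hspa1b* cannot be fully separated in short reads. Their transcripts, of 2967 and 2803 bases, were 99.2% identical over 2201 bases, and how reads that fit both places were counted is not given in the sources used here. *Hspa1a* held 35.4 to 38.4% of the pair's counts in each of the 8 quiescent libraries, 46.6 and 48.4% in the activated WT libraries, and 30.7 and 44.6% in the activated KO libraries. Summed as 1 gene, the pair had a log2 fold change of -1.71 on activation in WT, which passed (adjusted p = 0.0239).

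*Hspa8* encodes the Hsp70 that cells use without stress. Quiescent WT libraries had 5180, 5633, 7862 and 10340 CPM and activated ones 2758 and 3411 CPM (log2 fold change -1.23, SE 0.35, adjusted p = 0.0122). In KO, 4816, 5817, 5984 and 8465 CPM went to 2429 and 3986 CPM, and the log2 fold change of -0.97 (SE 0.35, adjusted p = 0.038) missed the limit on fold. All activated libraries were below all quiescent ones in both genotypes. The WT call was lost without either activated WT library (adjusted p = 0.181 without replicate 1 and 0.0673 without replicate 2, and from 0.001 to 0.181 over all alternatives). Counts on 8 processed copies of *Hspa8* amounted to 1.57% of its own counts in quiescent and 5.3% in activated libraries, and the largest, *Gm15459*, is 99.7% identical to it.

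*Hsph1*, an Hsp110 protein that exchanges nucleotides on Hsp70 and helps it take aggregates apart, had 760.3, 834.4, 999.2 and 1543 CPM in quiescent WT libraries. It had 240.8 and 344.2 CPM in activated ones, a log2 fold change of -1.82 (SE 0.47, adjusted p = 0.00654). In KO the range was wider, with 256.7, 642.6, 741.9 and 1359 CPM against 247.5 and 356.3 CPM, so that quiescent KO replicate 1 lay within the activated range (log2 fold change -1.31, SE 0.46, adjusted p = 0.034). The KO call was lost without quiescent replicate 4 (adjusted p = 0.0909) and without activated replicate 1 (0.0744) or 2 (0.249), and also with edgeR on the KO libraries alone (0.0644). The lowest value over its alternatives was 0.000383. The WT call was lost without activated WT replicate 2 (adjusted p = 0.0888, and 7.3e-07 at its lowest).

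*Hspb1* encodes a small heat shock protein that binds actin and desmin in muscle. It had 245, 292.5, 305.5 and 422.7 CPM in quiescent and 193.9 and 99.4 CPM in activated WT libraries (log2 fold change -1.10, SE 0.31, adjusted p = 0.0104). In KO it had 206.7, 250.9, 298.9 and 327.1 CPM against 108.1 and 102.9 CPM (log2 fold change -1.36, SE 0.31, adjusted p = 0.00224). Activated WT replicate 1, the highest activated library for the Hsp70 pair, was also the highest for *Hspb1*. Without activated WT replicate 2 the WT fold change was -0.65 (adjusted p = 0.284, against 0.00154 at its lowest), and without quiescent WT replicate 4 it was -0.92.

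*Hsp90aa1*, the stress-inducible cytosolic Hsp90, did not pass in either genotype. Its libraries covered 1710, 1862, 2390 and 3279 CPM in quiescent WT and 2108 and 2322 CPM in activated WT cells, and the fold change was -0.06 on the log2 scale (SE 0.31, adjusted p = 0.889). KO libraries had 1600, 1720, 1950 and 2650 CPM against 1800 and 2616 CPM (log2 fold change 0.16, SE 0.30, adjusted p = 0.692). The activated libraries fell within the quiescent range each time. Counts on 5 copies of *Hsp90aa1* came to 1.29% of its own in quiescent and 1.82% in activated libraries.

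The mitochondrial chaperonin went the other way. *Hspd1* (Hsp60) forms the folding chamber of the mitochondrial matrix and *Hspe1* (Hsp10) its lid. *Hspd1* had 165.3, 166.1, 166.2 and 229.2 CPM in quiescent and 386 and 484.7 CPM in activated WT libraries, a 2.39-fold rise (log2 fold change 1.26, SE 0.28, adjusted p = 0.00172). In KO it rose from 116.5, 159.7, 177.4 and 224.2 CPM to 280.8 and 470.3 CPM (log2 fold change 1.15, SE 0.28, adjusted p = 0.00336), a call lost without activated KO replicate 1 (adjusted p = 0.186, against 0.000549 at its lowest). Every activated library lay above every quiescent one. *Hspe1* had 40.4, 49.8, 59.96 and 71.6 CPM against 100.3 and 110.8 CPM in WT (log2 fold change 0.93, SE 0.32, adjusted p = 0.0356) and 28.3, 55.4, 61.6 and 63.8 CPM against 129.7 and 65.5 CPM in KO (log2 fold change 0.90, SE 0.32, adjusted p = 0.0371). Its libraries did not overlap either, but both fold changes were under the limit. *Hspe1* passed in WT with DESeq2 (1.01, adjusted p = 0.0191), with its size factors, with a mean count of at least 10 and without quiescent WT replicate 4, and in KO without quiescent replicate 2 or 4 or activated replicate 2. Over all alternatives its adjusted p ran from 0.00673 to 0.145 in WT and from 0.013 to 0.577 in KO. The KO activated library at 65.5 CPM lay just above the quiescent range. By the adjusted p alone, 11.5% of all genes rose in WT and 13.3% in KO. Copies of *Hspd1* and *Hspe1* held 2.15 and 2.81% of the genes' counts in quiescent and 2.91 and 3.98% in activated libraries. The spans of the 2 genes overlap at their starts on opposite strands (chromosome 1 from 55077835 to 55088243 and from 55088132 to 55091307), and whether counting used strand is not given in the sources used here.

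**Figure D2:**
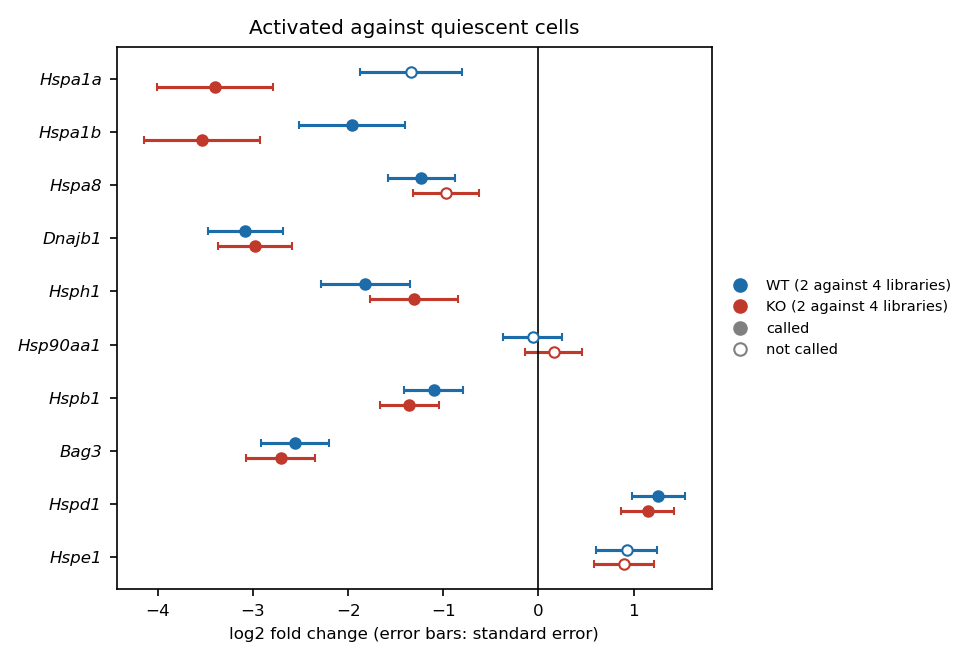
Log2 fold change of activated against quiescent cells (x axis, 0 at no change) for the 10 genes in WT and KO, with the standard error; filled points passed the adjusted p, fold and mean count limits. *Hspa1a* and *Hspa1b* are further left in KO (-3.40 and -3.54) than in WT (-1.34 and -1.96), and *Hspd1* and *Hspe1* lie right of 0 in both.

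In quiescent cells no member of the set differed between KO and WT by the same rule, which 4 of all genes (0.0155%) passed. All 10 log2 fold changes of KO against WT were below 0, from -0.61 for *Hspa1a* to -0.09 for *Hspe1*, with a median of -0.26, and 46.6% of all genes were below 0. None had an unadjusted p under 0.05, as 1.74% of all genes did, and DESeq2 also called 0. The largest difference, for *Hspa1a*, had an SE of 0.41 and an adjusted p of 1. The highest KO library, at 1881 CPM, stood below the lowest WT library, at 1973 CPM, a separation that 1.7% of all genes showed in either direction. *Hspa1b* had a log2 fold change of -0.60 (SE 0.41, adjusted p = 1), and its libraries overlapped, as did those of the other 8 genes.

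The libraries at both ends of the quiescent range bore on these differences. Quiescent KO replicate 1 had the lowest value of the 8 quiescent libraries for 10 of the 10 members, where it was lowest for 12.1% of all genes tested and for 16.5% of genes with a mean count over 100. It had 492 CPM of *Hspa1a* against 1641 CPM in the next KO library, 846.8 against 2953 CPM of *Hspa1b*, 414.2 against 751.3 CPM of *Dnajb1* and 256.7 against 642.6 CPM of *Hsph1*. For *Hspa8* and *Hsp90aa1* it was lowest by less, with 4816 CPM against 5180 CPM and 1600 CPM against 1710 CPM in the next of all 8 libraries. Its summed satellite cell markers (3178 CPM) and fibroadipogenic progenitor markers (286.4 CPM) were also the lowest of the quiescent libraries, its endothelial markers (1209 CPM) were the highest, and its fibre markers stood at 500.2 CPM. Its depth was 17238391 counts and its ribosomal RNA share of 0.295% the lowest. The part of these in the low chaperone values was not tested. Without it the median difference of the set was -0.12, with 8 of 10 genes below 0 (47.7% of all genes) and a range from -0.32 to 0.12.

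At the other end, quiescent WT replicate 4 was the highest of the 8 for 9 of the 10 members, *Dnajb1* being the exception, where it was highest for 8% of all genes tested and 13.4% of those with a mean count over 100. Quiescent WT replicates 3 and 4 and KO replicate 4 held the 3 highest values of *Hspa8*, *Hsph1*, *Hsp90aa1* and *Bag3*. *Dnajb1* was instead highest in WT replicates 1 and 2 and KO replicate 2. Without WT replicate 4 the median difference of KO against WT was -0.10, with 7 of 10 genes below 0 (47.4% of all genes) and a range from -0.45 to 0.06. The summed CPM of the set ran from 9478 in KO replicate 1 to 26630 in WT replicate 4 among quiescent libraries, and from 5576 to 9464 among activated ones.

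**Figure D3:**
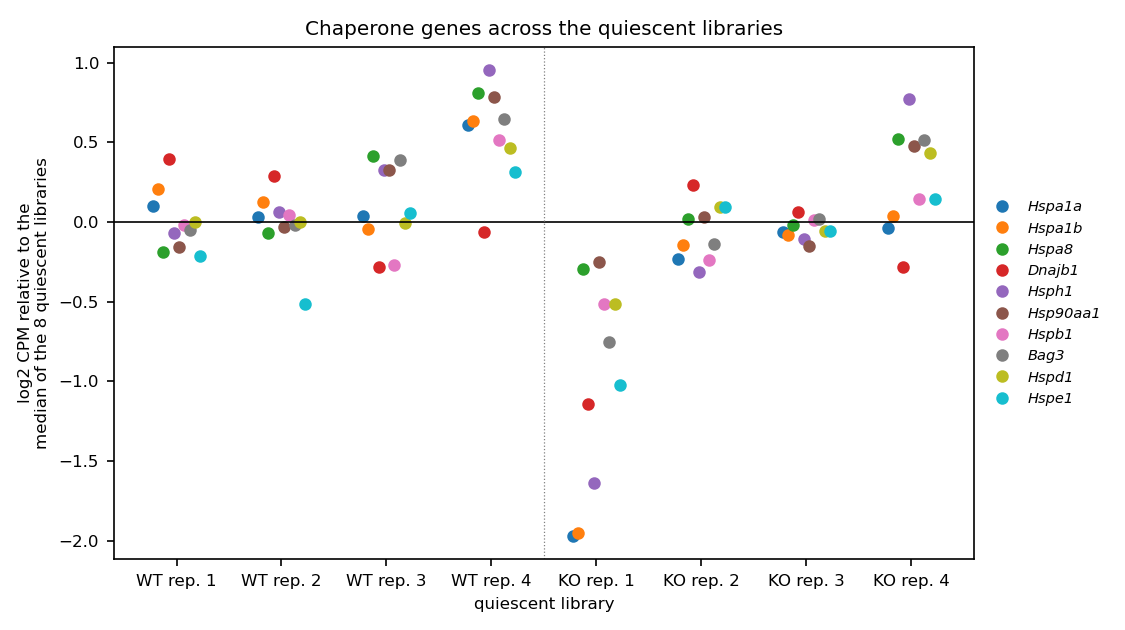
Log2 ratio of each gene's CPM to its median over the 8 quiescent libraries (y axis), by library (x axis, WT left of the dotted line), with a colour for each gene. All 10 genes are below 0 in KO replicate 1, where *Hspa1a* and *Hspa1b* are lowest, and all but *Dnajb1* are above 0 in WT replicate 4.

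Across the 8 quiescent libraries, with each genotype centred on its mean, log2 CPM of the other 8 members had Pearson correlations with the summed Hsp70 pair from 0.526 for *Hsp90aa1* to 0.894 for *Hsph1*. These points share their libraries, and KO replicate 1 is the lowest of each. Over the 7 libraries without it the correlations ran from 0.609 to 0.952 for 7 genes, the highest being *Hspb1*, and *Dnajb1* had -0.202 in place of 0.763. Among 8522 genes outside the set with at least 10 CPM, the 5 most like the pair were *Snd1* (0.995), *Spock1* (0.986), *Slitrk5* (0.976), *Dpt* (0.971) and *Msto1* (0.970). Without KO replicate 1 these were 0.951, 0.840, 0.847, 0.617 and 0.595. The 5 genes were picked as the highest of 8522 over only 8 libraries, KO replicate 1 included, so high values follow in part from the picking.

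In activated cells no member differed between KO and WT by the rule, which 13 of all genes (0.0504%) passed. That count went from 0 without activated WT replicate 1 to 59 without activated KO replicate 1 and 211 without activated WT replicate 2. The largest differences were those of the Hsp70 pair. *Hspa1a* had a log2 fold change of -2.67 (SE 0.62, adjusted p = 0.137) and *Hspa1b* one of -2.18 (SE 0.61, adjusted p = 0.235), and these 2 alone of the set had an unadjusted p under 0.05, as 8.37% of all genes did. DESeq2 on the same libraries called both (adjusted p = 0.00247 and 0.0257), as did edgeR with no filter on low counts (5.11e-09 and 1.13e-05, the lowest values over all alternatives, of which the highest was 1). Both KO libraries lay below both WT libraries for *Hspa1a* (96.1 and 180.7 against 1481 and 280.2 CPM) and for *Hspa1b* (216.8 and 224.5 against 1695 and 299.1 CPM), as for *Bag3*, where 24.7% of all genes were separated in either direction. Without activated WT replicate 1 the differences were -1.12 and -0.53. Without replicate 2 they were -3.50 and -3.02, and both passed (adjusted p = 0.00151 and 0.00391), in a fit that called 211 genes in all, 192 of them lower. The other 8 genes had log2 fold changes from -0.48 for *Hspb1* to 0.06 for *Hspa8*.

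**Figure D4:**
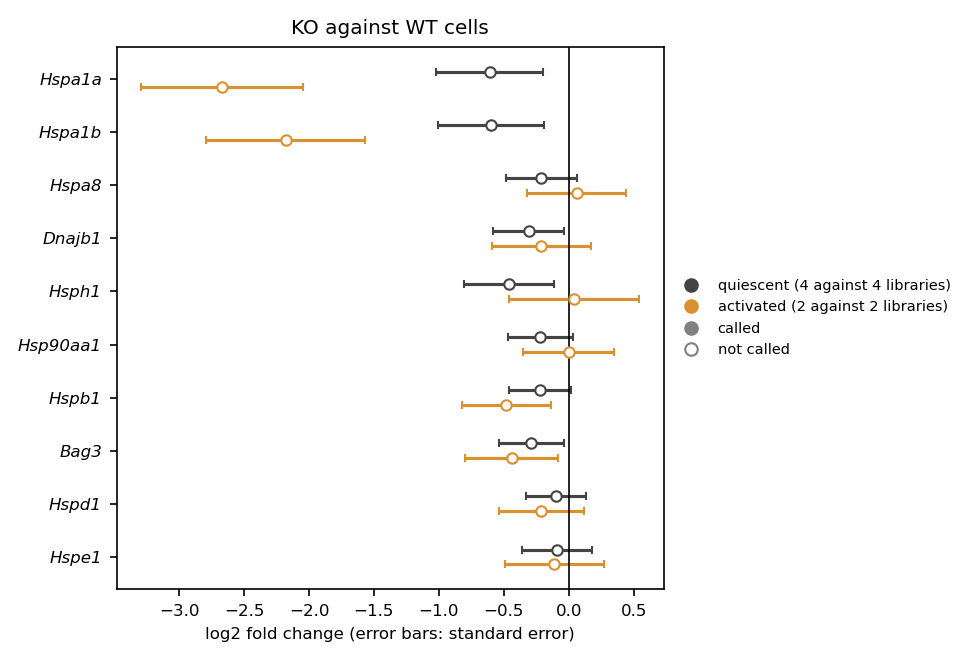
Log2 fold change of KO against WT (x axis, 0 at no change) for the 10 genes in quiescent (4 against 4 libraries) and activated cells (2 against 2), with the standard error; open points did not pass. *Hspa1a* (-2.67) and *Hspa1b* (-2.18) in activated cells stand apart from the other 18 points, which lie between -0.61 and 0.06.

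The KO effect in activated cells minus that in quiescent cells was -2.06 for *Hspa1a* (SE 0.73, adjusted p = 0.59) and -1.57 for *Hspa1b* (SE 0.72, adjusted p = 0.739), and between -0.26 and 0.51 for the other 8 genes. No gene of the whole table passed this test (0%), with 1699 of all genes (6.59%) and 2 members at an unadjusted p under 0.05. DESeq2 called 53 genes and no member. Hence the larger drop of the pair on activation in KO than in WT was not shown to differ between genotypes. Without activated WT replicate 1 the interaction was -0.51 for *Hspa1a* and 0.07 for *Hspa1b*, and without replicate 2 it was -2.90 and -2.42, of which *Hspa1a* passed (adjusted p = 0.0377, and from 0.00168 to 1 over all alternatives).

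The wider chaperone network was counted by family on activation, beside the 9.65% of all genes that rose and 16.5% that fell in WT and the 11.1% and 18.5% in KO, and these counts were not tested against those shares or against the set. None of its 83 genes passed in KO against WT in either state or in the interaction. Of the 8 other Hsp70 and Hsp110 genes, 3 fell and 1 rose in each genotype, with medians of -1.11 in WT and -0.76 in KO. *Hspa12a* (-3.15 in WT and -3.17 in KO) and *Hspa2* (-3.02 and -2.99), relatives of Hsp70 not known for heat induction, fell, and *Hspa1l*, which lies beside *Hspa1a* and is best known from testis, rose (3.02 and 1.97) from at most 2.61 CPM. Of 17 Hsp40 genes, 1 rose and 4 fell in WT and 2 rose and 3 fell in KO, near the shares of all genes. *Dnajb4* (-2.07 and -1.90) and *Dnaja1* (-1.69 and -1.48), J-domain partners of cytosolic Hsp70, fell with *Dnajb1*, while *Dnajc2*, which works on the ribosome, rose (2.39 and 2.30).

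Of 14 genes of Hsp90 and its partners, 3 rose and 2 fell in WT and 4 rose and 2 fell in KO. The falls were near the shares of all genes (16.5% and 18.5%), and the medians were 0.26 and 0.52. *Hsp90ab1*, the constitutive cytosolic Hsp90, belongs to this list and did not pass (-0.37 and -0.17). The co-chaperones *Fkbp4* (1.57 and 1.58) and *Chordc1* (1.44 and 1.49) rose, and *Ahsa2* (-2.65 and -2.58), a relative of the Hsp90 ATPase activator, and *Unc45a* (-2.13 and -2.08), a co-chaperone in myosin folding, fell. Of 7 BAG domain proteins and other regulators of the Hsp70 cycle, 4 rose and 0 fell in each genotype, unlike *Bag3*. *Bag1* rose by 2.68 in WT and 2.29 in KO and *Bag2* by 1.30 and 1.41.

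Among 7 small heat shock proteins other than *Hspb1*, 4 rose and 2 fell in each genotype, with medians of 1.08 in WT and 2.48 in KO. *Hspb7* (2.89 in WT and 4.07 in KO) and *Hspb3* (2.98 and 5.00), both made in heart and skeletal muscle fibres, rose beside the fibre markers given above. *Hspb3* rose from at most 2.13 CPM in quiescent WT and 0.683 CPM in quiescent KO libraries. *Cryab*, also a muscle small heat shock protein, fell (-2.06 and -1.95). The other gene that fell, *Hspb11*, had only 2 reads in the 4 activated libraries together and at most 1.91 CPM in quiescent ones. Of 14 genes of the cytosolic chaperonin TRiC and prefoldin, which fold actin and tubulin, 6 rose and 0 fell in each genotype, among them *Pfdn6* (2.48 and 2.65) and *Cct6a* (1.55 and 1.70). Mitochondrial chaperones and proteases rose with *Hspd1*, 6 of 11 in WT and 7 of 11 in KO with 0 falling and medians of 1.24 and 1.17. The protease subunit *Clpp* (2.51 and 2.66) and the J-domain protein *Dnaja3* (2.22 and 2.36) were among them.

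Of the heat shock factors and their regulators, none passed in WT and 3 of 5 passed in KO. *Hsf1*, the factor named above, had 67.6 to 124.1 CPM in the 8 quiescent and 85.1 to 108.9 CPM in the 4 activated libraries, and its log2 fold change was -0.12 in WT (SE 0.28, adjusted p = 0.75) and 0.00 in KO (SE 0.27, adjusted p = 1). *Hsf2* rose in KO (1.37, adjusted p = 0.000365) and had 0.29 in WT (adjusted p = 0.394). *Hsf4* fell in KO (-2.33, adjusted p = 0.00585), to 0.91 and 2.31 CPM in the activated libraries, and had -0.40 in WT (adjusted p = 0.571). The fifth list member, the inhibitor *Hsbp1*, had 0.35 in WT and 0.78 in KO and did not pass. *Hsf5* was called lower in KO, where it had no read in either activated library and 1.18 to 3.28 CPM in quiescent ones. In WT it had -1.87 (adjusted p = 0.153), with 5 reads in the activated libraries together. None of these genes passed in the interaction, so the genotypes were not shown to differ.

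**Figure D5:**
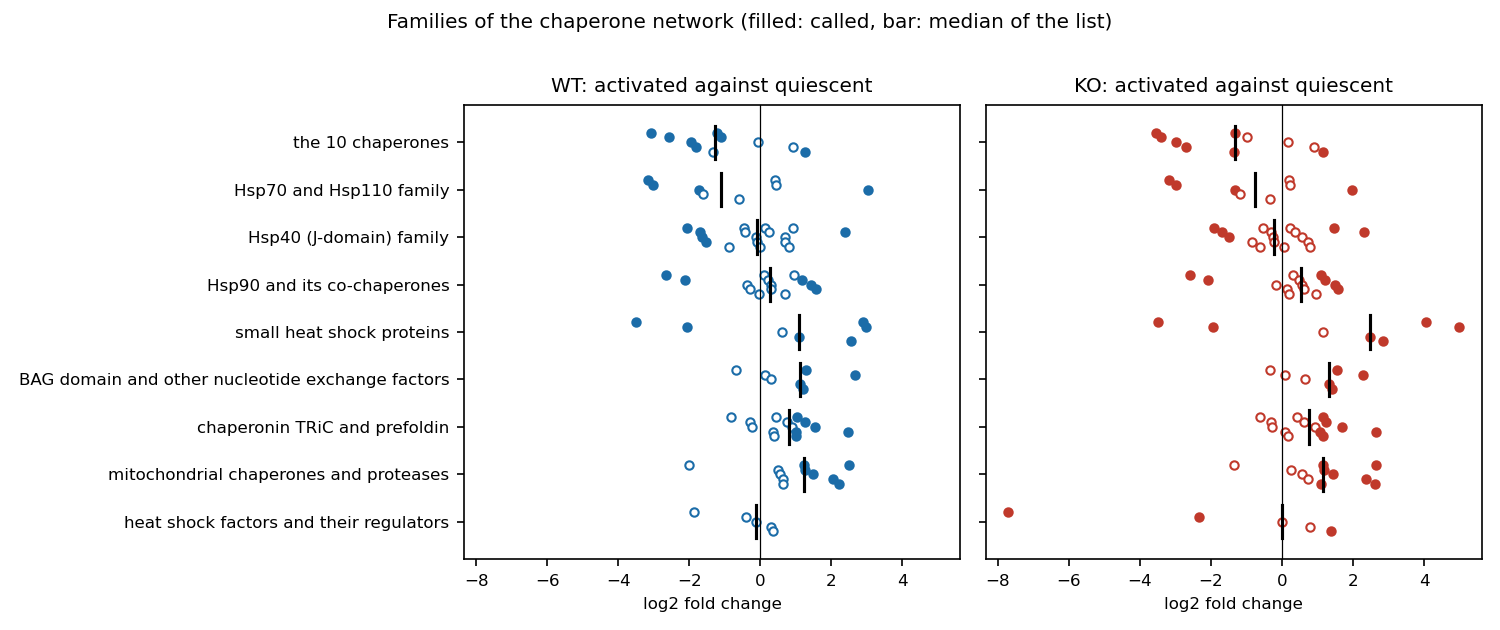
Log2 fold change on activation (x axis, 0 at no change) of the 10 chaperones and of each list of related genes in WT and KO; filled points passed, and bars are list medians. The 10 chaperones have medians of -1.29 and -1.34 while the small heat shock protein, BAG and mitochondrial lists have medians above 1. The far left point of the heat shock factors in KO is *Hsf5*, which had no read in activated KO libraries.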

How the data were processed

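Reads of total RNA libraries were trimmed by the authors with Trim Galore 0.6.0, mapped to GRCm38.p6 (mm10) with STAR 2.7.2a and counted on GENCODE genes with Rsubread, and the authors tested them with DESeq2 1.34.0; the versions of Trim Galore, STAR and DESeq2 are those of the submitters' processing notes. The deposited counts are whole reads per gene for 55401 genes and 12 libraries, without normalization. The authors also deposited FPKM, 1 value per group, used here only to compare genes per length. Groups came from the sample labels.

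From the counts, edgeR 4.0.16 in R 4.3.3 (filterByExpr, TMM, 1 quasi-likelihood fit of 4 group means, Benjamini-Hochberg adjustment over 25771 genes) tested activated against quiescent cells in each genotype, KO against WT in each state and their difference. A call needed an adjusted p under 0.05, a log2 fold change beyond 1 and a mean scaled count over 10. A standard error is the fold change divided by the square root of F. The test was checked on simulated counts that had the same spread for every gene. They held no difference in sex or ribosomal RNA share between libraries, so the check does not cover these. Depth is given with the results.

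The 10 genes and the lists were chosen with earlier results of these data known. All 10 are named, and of each list at most the 2 highest and 2 lowest WT fold changes among genes called alike in both genotypes on activation, and each heat shock factor. Copies of a gene were matched with blastn 2.17.0 (90% identity or more across 80% or more of a copy's length) on an earlier GENCODE release of the same build. Motifs were searched in RefSeq promoters. Alternatives were DESeq2 1.42.0 and its size factors, no filter or a mean count of at least 10, the compared groups alone, the ribosomal RNA gene left out, the Hsp70 pair summed, the adjusted p alone, the replicate number as a block, and each library left out.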

Additional observations from a re-analysis of the deposited data

Results flagged for a closer look

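Examined were 22 groups of 4 quiescent libraries (10 genes and the summed Hsp70 pair in 2 genotypes). In 4 of them a library's gap to the next exceeded Dixon's 95% limit for 4 samples. For a single group chance gives about 1 in 20. The groups share their libraries, and the pair repeats 2 of the genes, so the count cannot be set against that share. *Hspa1a* was high in quiescent WT replicate 4, at 2941 CPM, with a gap of 0.906 of the range. *Hspd1* was high in the same library, at 229.2 CPM (0.986 of the range). *Hspa1b* was low in quiescent KO replicate 1, at 846.8 CPM (0.837 of the range), and so was the sum of *Hspa1a* and *Hspa1b*, at 1339 CPM (0.834 of the range). The cause was not tested.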

How the results depend on the processing

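The count of members called was within 1.5 times the main count in most settings, and reached 9 with DESeq2 on activation in WT. On activation in WT it was 7, and 3 to 8 when each library was left out, with 3 without activated WT replicate 2. For KO against WT in activated cells it was 0, but 2 with no filter on low counts, 2 with DESeq2 and 0 to 2 when each library was left out (2 without activated WT replicate 2). For the interaction it was 0, but 1 with no filter and 0 to 1 with libraries left out. With no filter 47, 332 and 170 genes passed in the quiescent, activated and interaction tests against 4, 13 and 0, and DESeq2 called 147 and 53 in the last 2. With libraries left out the last 2 ran from 0 to 211 and from 0 to 82. Where 1 library of a group remained, it was assumed to vary like those of the other groups. The cause of these changes was not tested.

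Values near 0 changed sign. *Hsp90aa1* on activation in WT (-0.06) was 0.02 with DESeq2's size factors and with DESeq2, 0.03 with a mean count of at least 10, 0.01 on the compared groups, and -0.17 to 0.17 with libraries left out, and in KO it was -0.14 to 0.42. *Hspa8* for KO against WT in activated cells was 0 to 2 decimals by DESeq2 and its size factors. With libraries left out, KO against WT in quiescent cells ran from -0.39 to 0.01 for *Hspa8*, -0.26 to 0.04 for *Hspd1* and -0.20 to 0.12 for *Hspe1*. In activated cells it ran from -0.36 to 0.31 for *Hspa8*, -0.56 to 0.06 for *Dnajb1*, -0.26 to 0.24 for *Hsph1*, -0.32 to 0.18 for *Hsp90aa1*, -0.65 to 0.05 for *Hspd1* and -0.70 to 0.24 for *Hspe1*, and the interaction of *Hspa1b* from -2.42 to 0.07. On activation *Hsf1* was 0 with no filter in KO, and with libraries left out it ran from -0.23 to 0.05 in WT and -0.13 to 0.14 in KO, and *Hsf4* from -1.15 to 0.05 in WT.

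Whether replicate numbers pair libraries was not settled. Deviations of same-numbered quiescent libraries correlated at 0.35, 0.13, -0.41 and 0.69, and those of different numbers at -0.58 to 0.43. Activated ones correlated at -0.05 with the same number and at 0.05 with different numbers. With 2 activated libraries a group these values can differ only in sign, so they cannot decide it. With the number as a block 8 members (*Hspa1a* added) were called on activation in WT, 7 in KO, and 0 in each comparison of genotypes.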
